A study of Rattus norvegicus with 18 samples.

Results

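The mevalonate pathway was followed here up to squalene through 8 enzyme genes, taken by gene symbol from a table of 33657 genes: Acat2, Hmgcs1, Mvk, Pmvk, Mvd, Idi1, Fdps and Fdft1. The choice was made by symbol and not by a cut on measured values, but earlier results of these data were known. Transcripts were measured by RNA sequencing in the liver of male rats, 18 weeks old, in 18 libraries that fall into 6 groups of 3. The normal control group was healthy and was given water, and the other groups were labelled obese: an obese control given water, a positive control given orlistat, an inhibitor of fat-digesting lipases in the gut, and 3 groups whose feed held plantain in a low, a medium or a high dose. Neither the dose amounts nor the way in which obesity was brought about are in the labels, which also leave unsaid whether each library is from its own animal. A p-value of the fit used here thus speaks only of scatter among libraries of the same group, pooled over the 6 groups. That scatter is in part perhaps technical. Levels are FPKM, fragments scaled by gene length and library total. A change is a difference of log2(FPKM + 1) with its standard error, which understates the change of genes at low levels. It was called where the limma p-value, adjusted by the Benjamini-Hochberg method over all 11945 genes tested, was under 0.05.

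The mevalonate pathway turns acetyl-CoA in the cytosol and endoplasmic reticulum into the isoprene units from which cholesterol, ubiquinone, dolichol and protein prenyl groups are made. Liver is a main site of cholesterol synthesis, and the genes of the pathway are textbook targets of the transcription factor SREBP2, which is released when membrane sterol falls. Acat2 encodes the cytosolic thiolase that joins acetyl-CoA units, and Hmgcs1 the cytosolic HMG-CoA synthase. Mvk and Pmvk are the kinases that add phosphate to mevalonate, and Mvd is the decarboxylase that makes isopentenyl diphosphate. Idi1 isomerizes that unit, Fdps builds farnesyl diphosphate from it, and Fdft1, squalene synthase, commits farnesyl diphosphate to sterols.

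The sources used here do not give the genome build of the deposited table, in which all 8 are protein-coding genes. Acat2 (ENSRNOG00000019189) lies at chr1:47972399-47992653, Hmgcs1 (ENSRNOG00000016552) at chr2:52431601-52445055, Mvk (ENSRNOG00000049604) at chr12:47904719-47919400 and Pmvk (ENSRNOG00000020696) at chr2:188784222-188793895. Mvd (ENSRNOG00000013376) lies at chr19:55258905-55268951, Idi1 (ENSRNOG00000016690) at chr17:57976268-57984036, Fdps (ENSRNOG00000043377) at chr2:188392858-188413219 and Fdft1 (ENSRNOG00000021314) at chr15:46339249-46367302. Idi1 overlaps Wdr37 on the opposite strand by 100 bases, and Fdps overlaps an snRNA gene on its own strand by 107 bases. The sources used here do not say whether the counting used strand. Acat2 has a neighbour with a near-copy symbol, Acat2l1, at chr1:47996521-48026268, and its values are given beside those of Acat2.

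Because the members changed together between the controls, their promoters were searched for short motifs that textbooks tie to sterol genes. RefSeq (assembly GRCr8) held promoter sequence for 6 of the 8, all but Pmvk and Fdft1, and the 250 bases before the start were read. The letters CCAAT, the core bound by the factor NF-Y, occurred on either strand in 5 of the 6 windows, against 34.0% of 33469 rat promoter windows of that length. In 4 of the 6 they occurred 2 or more times, against 9.42% of all windows. Those 4 windows are printed because they hold the repeated motif, 5′ to 3′ on the strand of the gene, with CCAAT or its opposite-strand form ATTGG in capitals.
Hmgcs1: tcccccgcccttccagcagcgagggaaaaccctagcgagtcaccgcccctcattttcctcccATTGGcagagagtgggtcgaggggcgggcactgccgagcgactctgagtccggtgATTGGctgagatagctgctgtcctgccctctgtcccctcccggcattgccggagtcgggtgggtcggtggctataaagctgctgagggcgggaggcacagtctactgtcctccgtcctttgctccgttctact
Mvk: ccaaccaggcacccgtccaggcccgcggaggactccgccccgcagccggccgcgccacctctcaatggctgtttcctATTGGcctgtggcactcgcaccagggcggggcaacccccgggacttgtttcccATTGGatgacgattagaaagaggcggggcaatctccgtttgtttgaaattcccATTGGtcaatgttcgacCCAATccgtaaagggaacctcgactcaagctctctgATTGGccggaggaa
Idi1: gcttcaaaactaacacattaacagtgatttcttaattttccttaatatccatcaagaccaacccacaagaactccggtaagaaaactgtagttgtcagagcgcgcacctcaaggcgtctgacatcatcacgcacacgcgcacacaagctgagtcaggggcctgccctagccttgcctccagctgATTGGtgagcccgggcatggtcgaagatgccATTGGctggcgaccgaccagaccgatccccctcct
Fdps: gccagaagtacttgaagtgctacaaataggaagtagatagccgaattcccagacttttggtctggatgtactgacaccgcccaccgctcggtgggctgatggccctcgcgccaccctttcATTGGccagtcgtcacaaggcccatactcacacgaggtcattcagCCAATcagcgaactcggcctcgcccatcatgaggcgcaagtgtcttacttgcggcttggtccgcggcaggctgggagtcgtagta
In GRCr8 these windows lie at chr2:53382054-53382303 on the plus strand for Hmgcs1, and on the minus strand at chr12:47819504-47819753 for Mvk, chr17:66547525-66547774 for Idi1 and chr2:176804817-176805066 for Fdps. Mvk held 5 matches and Hmgcs1, Idi1 and Fdps 2 each, while the Mvd window held 1. The Acat2 window held none of these letters. The sterol response element in the form TCACCCCAC was in none of the 6 windows and in 0.409% of all windows, and with any base in the middle (TCACNCCAC, which contains the former) in none and in 0.974%. The E-box CACGTG was in none of the 6 and in 5.59% of all windows. These are matches of letters on both strands, and say nothing on whether a factor was bound.

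Between 16.6 and 26.2 M (mega) whole reads or fragments per library were recovered from the FPKM, with the normal control the deepest (25.5 to 26.2 M) and the high dose the shallowest group (16.6 to 20.6 M). The hepatocyte markers, 12 genes led by albumin, summed to between 80604 and 99133 FPKM in every library, as the liver label says. The summed level of 11 macrophage markers was 189 to 190 FPKM in the normal control, 317 to 327 in the obese control, 331 to 351 with orlistat, and 402 to 413, 262 to 270 and 267 to 272 at the low, medium and high dose. That of 8 sinusoidal endothelial markers was 55.5 to 57.6 FPKM in the normal control, 75.4 to 76.1 in the obese control and 107 to 129 in the treated groups. No marker of either list was at 0 in all libraries. For red blood cells, the summed level of 4 markers was 196 to 210 FPKM in the normal control, 363 to 437 in the obese control and 247 to 378 in the treated groups, with none at 0 in all libraries. For neutrophils 4 markers summed to 4.85 to 5.72 FPKM in the normal control, 10.7 to 11.1 in the obese control, 5.83 to 8.96 with orlistat and 10.9 to 14.1 at the 3 doses. These marker levels moved with the groups, and their part in the results below was not tested. In whole tissue, fewer cells of a type and less RNA per cell cannot be told apart.

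The pathway was lower in the obese control than in the normal control. Of the 8 genes 7 fell, where 28.4% of all tested genes were called lower and 26.7% higher, and the members' median difference was -1.29 against 0.00 over all tested genes. The fall was close to 1.6 on the log2 scale for Fdps, Fdft1 and Idi1 and shallowest for Hmgcs1 (-0.58 ± 0.03), while Mvd did not pass the test. Acat2 fell by 2.06 ± 0.11, but by 1.32 when summed with its near copy Acat2l1, which is less than those 3 genes. In each treated group the pathway stayed below the normal control, but some of its genes stood above the obese control. Fdft1 and Mvk were called higher than the obese control in all 4 treated groups, Fdps at the low and medium dose, Pmvk at the same doses, Idi1 with orlistat. Acat2 was called higher in all 4 as well, and in none when summed with Acat2l1 (adjusted p from 0.15 to 0.96). Other genes went the other way: Mvd was called lower with orlistat and at the high dose, and Hmgcs1 lower at the high dose. With orlistat Hmgcs1 was called higher. These calls of Mvd and Hmgcs1 were not kept in all alternatives. The treated groups were compared with the same 3 obese libraries, so these comparisons are not independent of each other.

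**Figure D1:**
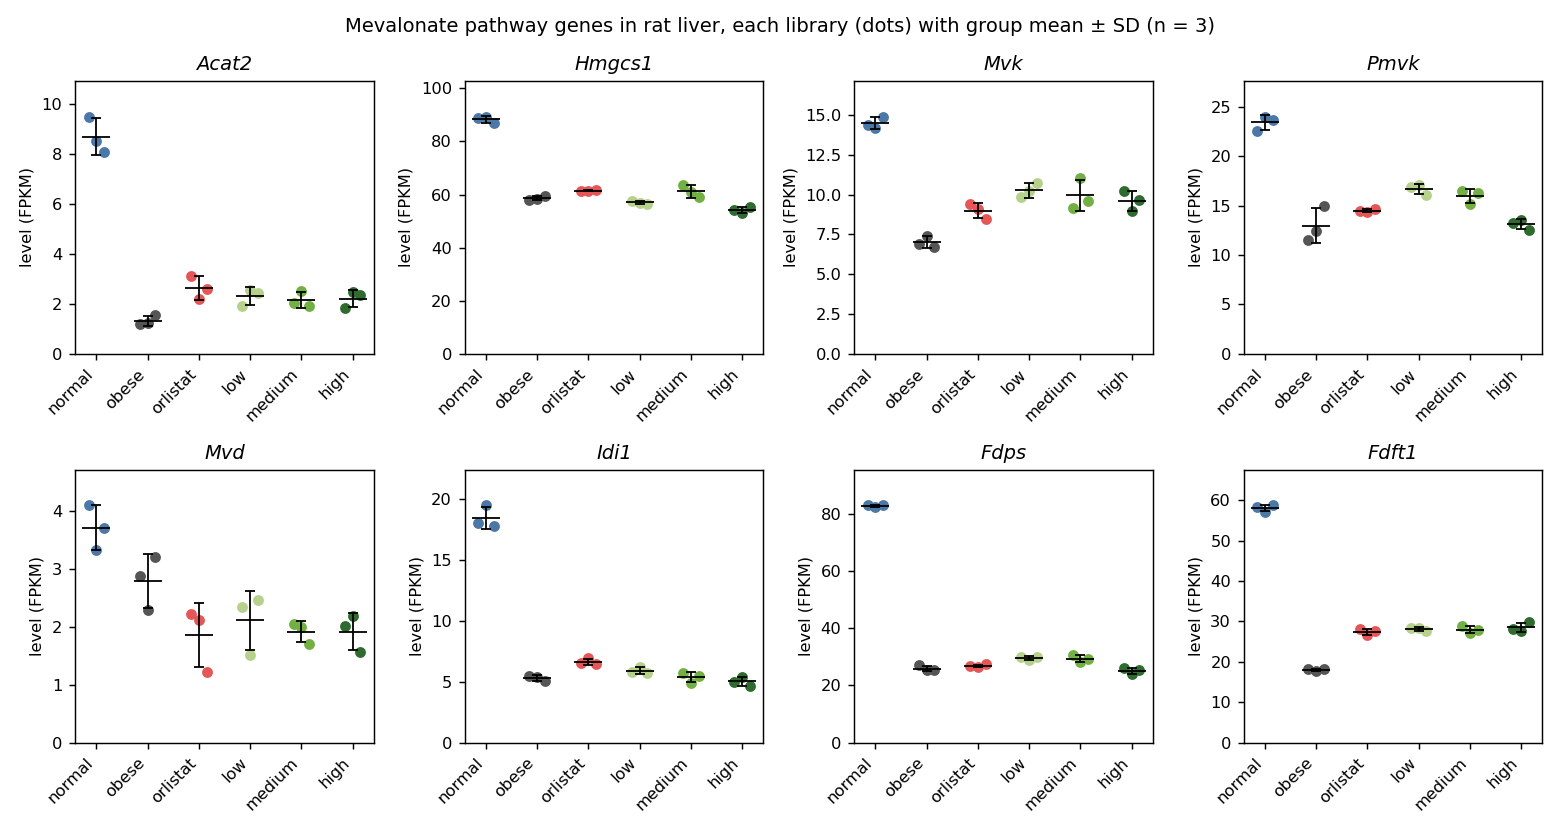
FPKM of each of the 8 genes (vertical axes, starting at 0) in the 18 libraries (dots), grouped as normal control, obese control, orlistat and low, medium and high plantain dose, with the group mean and SD of 3 libraries. All 8 genes are highest in the normal control, and Fdft1 sits between 26.5 and 29.8 FPKM in every treated library against 17.8 to 18.3 in the obese control.

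Acat2, the first step, was listed at 9.51, 8.53 and 8.09 FPKM in the normal control and at 1.21, 1.23 and 1.57 in the obese control. It stood at 3.12, 2.20 and 2.60 with orlistat and at 1.91, 2.58 and 2.45 at the low dose. At the medium dose it was 2.05, 2.53 and 1.90, and at the high dose 1.82, 2.46 and 2.36. The normal control was far above all other libraries, every treated library was above every obese control library, and the treated groups overlapped each other. Against the obese control the difference was 0.64 ± 0.11 with orlistat (adjusted p = 0.00024), 0.50 ± 0.11 at the low dose (adjusted p = 0.0030), 0.44 ± 0.11 at the medium dose (adjusted p = 0.0062) and 0.46 ± 0.11 at the high dose (adjusted p = 0.0033). These levels rest on few reads, 46 to 64 per library in the obese control and 70 to 135 in the treated groups.

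Acat2l1, the neighbouring near copy, went the other way. It was at 0.72, 1.29 and 1.70 FPKM in the normal control, at 2.22, 1.86 and 2.07 in the obese control, and between 0.97 and 1.33 in all 12 treated libraries. The obese control stood above every other library here, by 0.47 ± 0.12 over the normal control (adjusted p = 0.0041), and each treated group fell from it, by 0.46 with orlistat (adjusted p = 0.0049) and by 0.44, 0.44 and 0.50 at the low, medium and high dose (adjusted p = 0.011, 0.0094 and 0.0028). The sources used here do not say how reads shared by the pair were counted, so the split between them is uncertain. Summed over both genes, an analysis chosen after seeing the data, the level was 9.95 ± 0.24 FPKM in the normal control and 3.38 ± 0.28 in the obese control, and -1.32 (adjusted p = 1.4e-09) was left of the fall. The treated groups had sums of 3.85, 3.56, 3.41 and 3.37 FPKM, in the order orlistat, low, medium and high dose. Their differences from the obese control were then 0.15 (adjusted p = 0.15), 0.06 (adjusted p = 0.64), 0.01 (adjusted p = 0.94) and -0.01 (adjusted p = 0.96), so the Acat2 calls against the obese control were not kept on the sum.

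**Figure D2:**
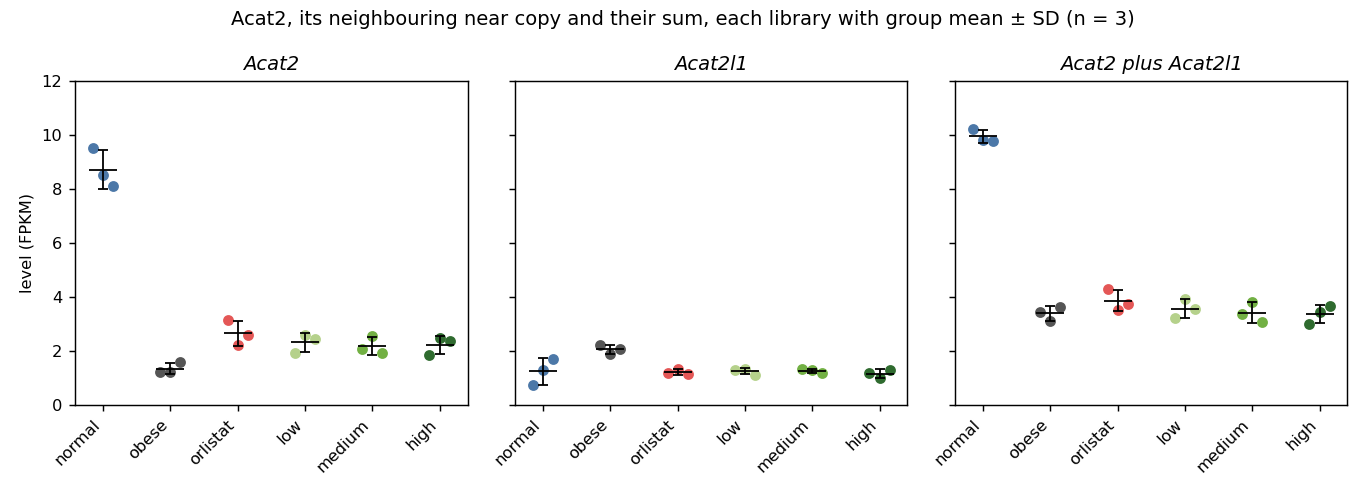
FPKM (vertical axis, starting at 0) of Acat2, of its neighbour Acat2l1 and of their sum in the 18 libraries (dots), by group, with the mean and SD of 3 libraries. The obese control is lowest for Acat2 and highest for Acat2l1, and on the sum its libraries (3.09 to 3.64 FPKM) overlap those of each treated group.

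Hmgcs1 kept the largest share of its normal level of the genes called, 66.3% in the obese control. It was at 88.8, 89.3 and 86.9 FPKM in the normal control, at 58.0, 58.4 and 59.5 in the obese control and at 61.3, 61.2 and 61.6 with orlistat. At the low dose it was 57.8, 56.9 and 56.6, at the medium dose 63.6, 60.8 and 59.0 and at the high dose 54.1, 53.1 and 55.2. Each of the 15 libraries of obese rats was below the normal control, orlistat lay just above the obese control without overlap, the low and high doses lay below it without overlap, and only the medium dose overlapped it. The difference from the obese control was 0.07 ± 0.03 with orlistat (adjusted p = 0.041) and -0.11 ± 0.03 at the high dose (adjusted p = 0.0015), and -0.04 (adjusted p = 0.27) and 0.06 (adjusted p = 0.071) at the low and medium dose. The orlistat call was lost without any single orlistat library, without obese control library 1 or 2 and without normal control library 1, with differences of 0.06 to 0.07 (adjusted p from 0.050 to 0.12). Under TPM, which rescales each library's FPKM to a common sum, the high dose difference turned to 0.06, and with quantile normalization it was -0.0024 (adjusted p = 0.94). With voom (limma's fit of the recovered reads) on recovered totals it was -0.04 (adjusted p = 0.24). The medium dose was called higher under TPM (0.15, adjusted p = 0.00025), with quantile normalization (0.14, adjusted p = 0.00019) and with voom on recovered totals (0.12, adjusted p = 0.00083). It was also called without medium dose library 3 (0.08, adjusted p = 0.015).

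Both kinases were higher than in the obese control at the low and medium dose. Mvk, the first of them, was at 14.3, 14.2 and 14.9 FPKM in the normal control and at 6.90, 7.43 and 6.73 in the obese control, and every treated library lay between 8.48 and 11.1. It stood at 9.39, 9.12 and 8.48 with orlistat, at 9.82, 10.2 and 10.8 at the low dose, at 9.17, 11.1 and 9.62 at the medium dose and at 10.2, 8.95 and 9.64 at the high dose. No treated library overlapped either control. The obese control differed from the normal control by -0.95 ± 0.06 (adjusted p = 3.5e-09), and against the obese control Mvk rose by 0.32 ± 0.06 with orlistat (adjusted p = 0.00053), and by 0.49, 0.45 and 0.40 at the low, medium and high dose (adjusted p = 1.7e-05, 3.2e-05 and 6.5e-05). The doses overlapped each other, and no difference between doses was called for Mvk.

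Pmvk, the next kinase, was at 22.5, 24.0 and 23.7 FPKM in the normal control and at 11.5, 12.4 and 14.9 in the obese control, whose library 3 was close to the orlistat libraries (14.4, 14.4 and 14.7). It was 16.9, 17.1 and 16.1 at the low dose, 16.5, 15.1 and 16.2 at the medium dose, and 13.2, 13.6 and 12.5 at the high dose. The low and medium dose libraries were above all obese control libraries, while orlistat and the high dose overlapped them. The fall between the controls was -0.81 ± 0.07 (adjusted p = 4.0e-08). Pmvk rose by 0.35 ± 0.07 at the low dose (adjusted p = 0.00070) and by 0.29 ± 0.07 at the medium dose (adjusted p = 0.0023). With orlistat the difference was 0.16 (adjusted p = 0.054) and at the high dose 0.02 (adjusted p = 0.80). Without obese control library 3 both of these were called, at 0.26 (adjusted p = 0.00038) and 0.12 (adjusted p = 0.044). Under TPM both were called as well, at 0.33 (adjusted p = 0.00069) and 0.20 (adjusted p = 0.023). The orlistat difference was also called with voom on recovered totals (0.26, adjusted p = 0.0069). It was called too with a filter of at least 5 FPKM in at least 3 libraries (0.16, adjusted p = 0.043). Pmvk was also lower at the high dose than at the low dose, by -0.33 ± 0.07 (adjusted p = 0.0014), and than at the medium dose, by -0.27 ± 0.07 (adjusted p = 0.0093).

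Mvd was the only member not called between the controls, and it had the lowest level of the 8 in every group but the obese control, where Acat2 was lower. It was at 4.10, 3.32 and 3.71 FPKM in the normal control and at 2.87, 2.30 and 3.21 in the obese control, which lay below without overlap but did not pass the test (-0.32 ± 0.15, adjusted p = 0.087). With orlistat it was 2.23, 2.12 and 1.23, and at the low dose 2.35, 1.52 and 2.47. At the medium dose it was 2.04, 1.99 and 1.71, and at the high dose 2.01, 2.19 and 1.56. The orlistat, medium and high dose libraries were all below the obese control, and the low dose overlapped it. The difference from the obese control was -0.42 ± 0.15 with orlistat (adjusted p = 0.028) and -0.38 ± 0.15 at the high dose (adjusted p = 0.046), both called lower, and -0.29 (adjusted p = 0.15) and -0.38 (adjusted p = 0.056) at the low and medium dose. These calls rest on 44 to 109 reads per library. The orlistat call was lost without obese control library 1 or 3 or orlistat library 3 (differences from -0.25 to -0.40, adjusted p from 0.070 to 0.16). The high dose call was lost without obese control library 1 or 3 or high dose library 1 or 3 (-0.29 to -0.40, adjusted p from 0.069 to 0.17), and, at the unchanged difference of -0.38, without any single normal control or medium dose library (adjusted p from 0.050 to 0.055). By processing, the orlistat call was lost without the filter on low values, under TPM, with voom (limma's fit of the recovered reads) on recovered totals and in a fit of the compared groups alone (-0.36 to -0.52, adjusted p from 0.053 to 0.10). The high dose call was lost with a pseudocount of 0.1, without the filter, under TPM and with voom on either library size (-0.29 to -0.52, adjusted p from 0.055 to 0.18). The medium dose was called with quantile normalization (-0.41, adjusted p = 0.042) and in a fit of the compared groups alone (adjusted p = 0.031), and without obese control library 2 (-0.47, adjusted p = 0.034), orlistat library 3 (adjusted p = 0.026) or low dose library 2 (adjusted p = 0.036). The fall between the controls was called without orlistat library 3 (-0.32, adjusted p = 0.044), under TPM, with voom and in a fit of the 2 control groups alone (-0.32 to -0.48, adjusted p from 0.021 to 0.041).

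Idi1 was at 18.0, 19.4 and 17.8 FPKM in the normal control, at 5.47, 5.42 and 5.03 in the obese control and at 6.49, 6.91 and 6.45 with orlistat. It was at 5.78, 6.20 and 5.67 at the low dose, at 5.69, 4.90 and 5.48 at the medium dose and at 4.98, 5.39 and 4.68 at the high dose. Orlistat and the low dose were above the obese control without overlap, and the higher doses overlapped it. Between the controls Idi1 fell by 1.62 ± 0.06 on the log2 scale (adjusted p = 1.6e-12). It was called higher with orlistat alone (0.27 ± 0.06, adjusted p = 0.00091), with 0.13, 0.01 and -0.07 at the low, medium and high dose (adjusted p = 0.11, 0.91 and 0.33). Under TPM the low dose was called higher as well (0.17, adjusted p = 0.020).

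Fdps, which feeds farnesyl diphosphate to all branches, was at 82.9, 82.4 and 82.9 FPKM in the normal control and at 27.0, 25.3 and 25.4 in the obese control. It was at 26.6, 26.4 and 27.4 with orlistat and at 26.0, 23.9 and 25.3 at the high dose, which overlapped the obese control. At the low dose it was 30.0, 28.8 and 29.8 and at the medium dose 30.5, 28.3 and 29.1, above every obese control library. The rises were small beside the fall of 1.64 ± 0.04 between the controls (adjusted p = 4.0e-15): 0.18 ± 0.04 at the low dose (adjusted p = 0.00080) and 0.17 ± 0.04 at the medium dose (adjusted p = 0.00096), with 0.05 with orlistat (adjusted p = 0.28) and -0.04 at the high dose (adjusted p = 0.32). Under TPM the last of these turned to 0.13 and was called (adjusted p = 0.0070), and orlistat was called at 0.21 (adjusted p = 0.00014). Orlistat was also called with quantile normalization (0.12, adjusted p = 0.0048) and with voom on recovered totals (0.14, adjusted p = 0.0039).

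Fdft1, the step that commits to squalene, had the smallest adjusted p of the 8 genes in each comparison of a treated group with the obese control. It was at 58.3, 57.1 and 58.7 FPKM in the normal control and at 18.2, 17.8 and 18.3 in the obese control. With orlistat it was 28.0, 26.5 and 27.6, at the low dose 28.3, 28.4 and 27.6, at the medium dose 28.9, 27.1 and 27.9 and at the high dose 28.2, 27.5 and 29.8. All 12 treated libraries lay between the controls with no overlap with either, and the treated groups overlapped each other. Fdft1 fell by 1.63 ± 0.03 between the controls (adjusted p = 1.6e-15) and rose from the obese control by 0.58 ± 0.03 with orlistat (adjusted p = 7.1e-10), 0.61 ± 0.03 at the low dose (adjusted p = 8.3e-10), 0.60 ± 0.03 at the medium dose (adjusted p = 6.3e-10) and 0.63 ± 0.03 at the high dose (adjusted p = 2.6e-10). The high dose differed from the low dose by 0.02, with an interval of -0.05 to 0.09 (95%), and from orlistat by 0.05, with an interval of -0.01 to 0.12, and neither was called. Under TPM the difference of the high from the low dose was 0.15 and was called (adjusted p = 0.0031).

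**Figure D3:**
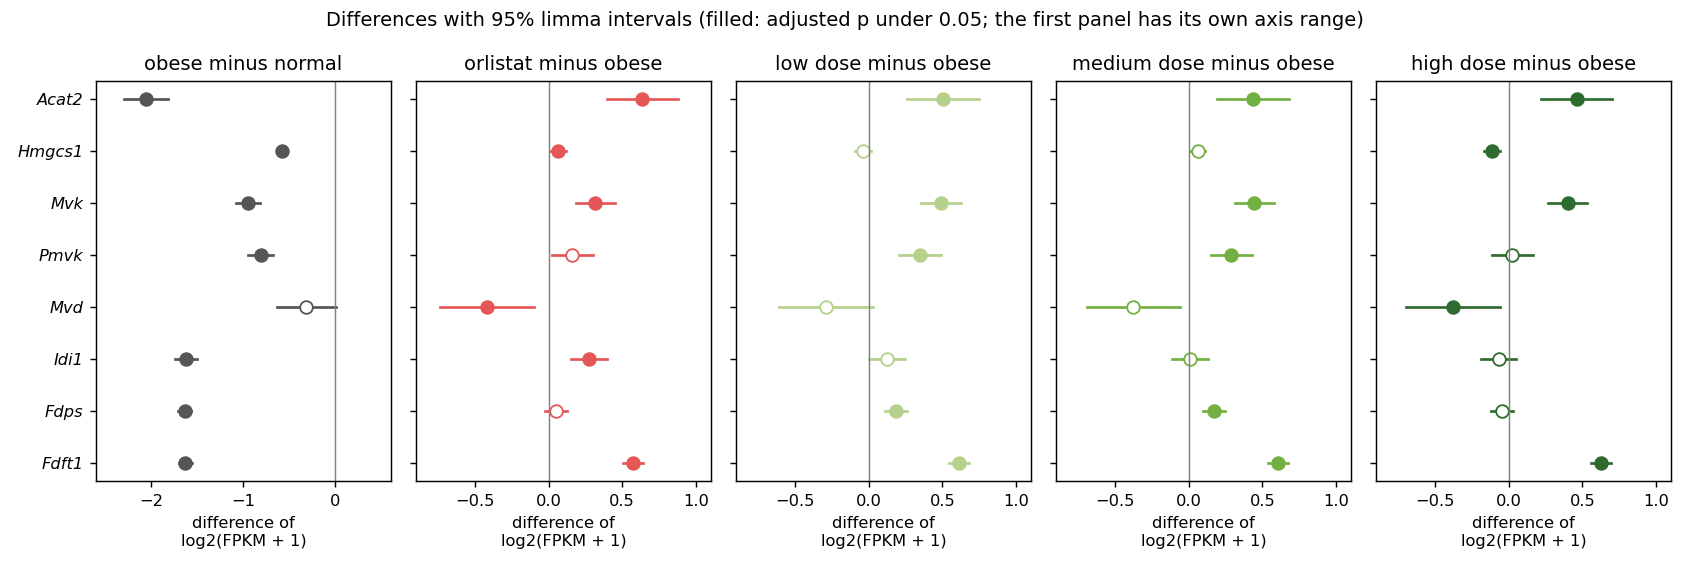
Difference of log2(FPKM + 1) (horizontal axes, the first panel with its own range) for the 8 genes, as obese minus normal control and as each treated group minus the obese control, with 95% limma intervals (bars) and filled dots where the adjusted p was under 0.05. Fdft1 lies between 0.58 and 0.63 in all 4 treated groups, while Idi1, Fdps and Hmgcs1 are each above 0 in some treated groups and below it in others.

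In counts, orlistat against the obese control gave 5 members higher and 1 lower, where 26.2% of all tested genes were called higher and 25.6% lower. The low dose gave 5 higher (all tested genes: 18.3% higher, 14.8% lower) and the medium dose 5 higher (21.8% higher, 20.1% lower). The high dose gave 3 higher and 2 lower (26.6% higher, 25.3% lower). The members' median differences were 0.22, 0.27 and 0.23 with orlistat, the low and the medium dose and -0.01 at the high dose, against medians over all tested genes between -0.01 and 0.01. The high dose counts are therefore close to what all genes showed. Under TPM the members' counts were 7, 6, 6 and 5 higher for orlistat, low, medium and high dose and none lower, but under TPM the median difference over all tested genes was itself 0.14, 0.05, 0.08 and 0.15. The calls over all genes moved with it, from 3133 higher and 3055 lower to 4989 and 1566 for orlistat, from 2183 and 1764 to 2675 and 1302 for the low dose, from 2599 and 2404 to 3748 and 1440 for the medium dose, and from 3181 and 3018 to 5176 and 1476 for the high dose. Between the controls TPM took that median to -0.11 and the calls from 3191 higher and 3387 lower to 1973 and 4569, and all 8 members were then lower.

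Relative to the normal control, the obese control kept between 15.3% (Acat2) and 75.3% (Mvd) of the level, with a median of 39.9%. The medians were 48.6% with orlistat, 52.7% at the low dose, 49.9% at the medium dose and 50.4% at the high dose. Each of the 8 genes was below the normal control in each treated group by the test, where 24.3% of tested genes were called lower with orlistat and 25.0%, 24.2% and 22.9% at the low, medium and high dose. Fdft1 stood at 47.2% to 49.1% of its normal level in the treated groups, and Fdps at 30.3% to 35.7%. The lowest of the 6 group means was the obese control for Acat2, Mvk, Pmvk and Fdft1, the high dose for Hmgcs1, Idi1 and Fdps, and orlistat for Mvd. A test of any difference among the 6 groups called all 8 genes, and 72.1% of all tested genes.

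**Figure D4:**
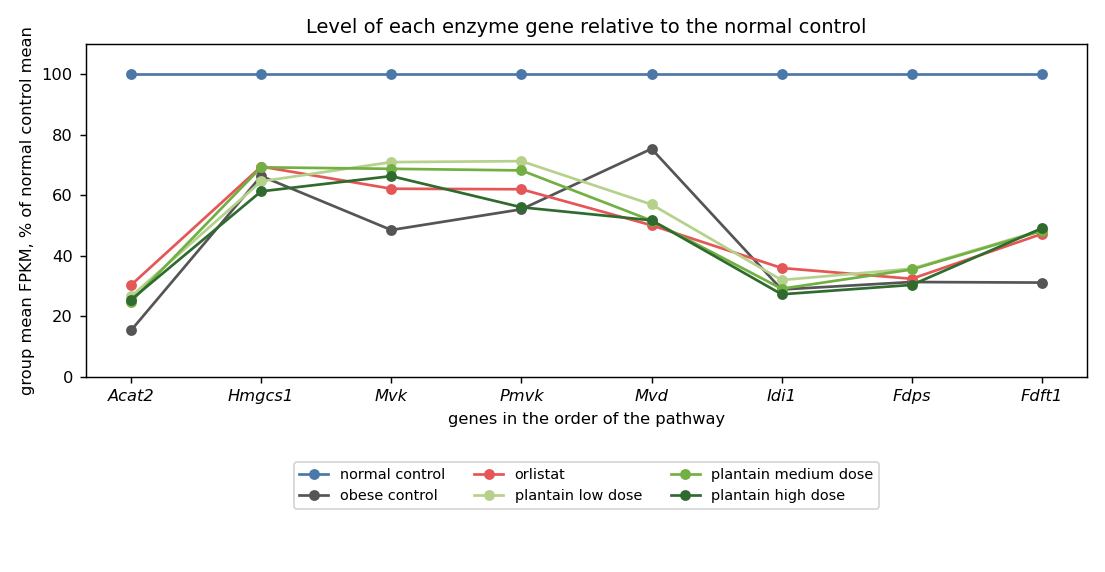
Group mean FPKM of each gene as a percent of the normal control mean (vertical axis, starting at 0), with the 8 genes in pathway order on the horizontal axis and 1 line per group. The line of the obese control runs from 15.3% at Acat2 to 75.3% at Mvd.

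Between the plantain doses, calls were made for Hmgcs1, Pmvk, Idi1 and Fdps, and none for Acat2, Mvk, Mvd and Fdft1. The high dose was lower than the low dose for 4 genes, where 32.7% of all tested genes were called in either direction: Pmvk, Fdps (-0.23 ± 0.04, adjusted p = 0.00015), Idi1 (-0.20 ± 0.06, adjusted p = 0.016) and Hmgcs1 (-0.07 ± 0.03, adjusted p = 0.034). It was lower than the medium dose for 3 genes (all tested genes: 20.3%), namely Pmvk, Fdps (-0.22 ± 0.04, adjusted p = 0.00041) and Hmgcs1 (-0.17 ± 0.03, adjusted p = 0.00017). The medium dose was above the low dose for Hmgcs1 alone (0.10 ± 0.03, adjusted p = 0.010), where 23.0% of all tested genes were called. The Idi1 call between the high and low dose was lost without low dose library 2 (-0.16, adjusted p = 0.071) or high dose library 3 (-0.15, adjusted p = 0.076). By processing, that Idi1 call was lost in 3 of 12 alternatives, over which the difference ranged from -0.23 to -0.09. The Hmgcs1 call was lost without any single low dose library or without high dose library 1 or 2 (-0.06 to -0.08, adjusted p from 0.052 to 0.12), and under TPM that difference turned to 0.06. Without low dose library 2 the count of 4 genes fell to 2.

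A linear contrast over the obese control and the 3 doses, taken as equal steps because no amounts are given, called 5 genes. Per step Fdft1 rose by 0.19 ± 0.01 (adjusted p = 4.6e-10), Acat2 by 0.13 ± 0.04 (adjusted p = 0.0065) and Mvk by 0.12 ± 0.02 (adjusted p = 0.00015), where 26.5% of all tested genes were called higher. Mvd (-0.12 ± 0.05, adjusted p = 0.042) and Hmgcs1 (-0.02 ± 0.01, adjusted p = 0.020) were called lower, as were 26.0% of all tested genes. For Fdft1, Mvk and Acat2 the difference from the obese control was 0.61, 0.49 and 0.50 at the low dose and 0.63, 0.40 and 0.46 at the high dose, so it did not grow in even steps. Summed with Acat2l1, the Acat2 value per step turned to -0.0064 (adjusted p = 0.86). The Hmgcs1 value turned to 0.03 under TPM, then called higher (adjusted p = 0.0030), and was 0.01 with quantile normalization (adjusted p = 0.13) and 0.0038 with voom on recovered totals (adjusted p = 0.73). The Mvd call was lost with a pseudocount of 0.1, without the filter on low values, under TPM and with voom on recovered totals (-0.09 to -0.17, adjusted p from 0.051 to 0.17). Without obese control library 3 the count was 3, since Mvd (-0.10, adjusted p = 0.14) and Hmgcs1 (-0.02, adjusted p = 0.067) were no longer called. Hmgcs1 was also lost without high dose library 2 (-0.02, adjusted p = 0.076), and Mvd without any of 7 other single libraries (normal control 3, obese control 1, low dose 1 or 3, medium dose 3, high dose 1 or 3; -0.09 to -0.13, adjusted p from 0.051 to 0.15).

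Set against orlistat, the low dose was higher for Pmvk (0.19 ± 0.07, adjusted p = 0.034), Mvk (0.17 ± 0.06, adjusted p = 0.041) and Fdps (0.14 ± 0.04, adjusted p = 0.0066) and lower for Hmgcs1 (-0.10 ± 0.03, adjusted p = 0.0046), 4 calls where 36.8% of all tested genes were called. Without orlistat library 2 or 3 the count was 2. The Mvk call was lost without orlistat library 2 or 3 or low dose library 2 or 3 (0.14 to 0.18, adjusted p from 0.067 to 0.15), and the Pmvk call without any orlistat library or without low dose library 1 or 2 (0.17 to 0.20, adjusted p from 0.061 to 0.098). By processing, the Fdps call was lost under TPM (0.01, adjusted p = 0.80), with quantile normalization (0.06, adjusted p = 0.14) and with voom on recovered totals (0.06, adjusted p = 0.24). The Mvk and Pmvk calls were lost under TPM (0.06 and 0.07, adjusted p = 0.53 and 0.43), with voom on recovered totals (0.11 for both, adjusted p = 0.32 and 0.22) and without the filter on low values (adjusted p = 0.071 and 0.062). Mvk was also lost with voom on median-of-ratios size factors and with the replicate block (adjusted p = 0.071 and 0.056), and Pmvk with quantile normalization (adjusted p = 0.055). The medium dose was higher for Fdps (0.13 ± 0.04, adjusted p = 0.015) and lower for Idi1 (-0.26 ± 0.06, adjusted p = 0.0028), against 26.9% of all tested genes. The Fdps call was lost without orlistat library 2 (0.12, adjusted p = 0.053) or medium dose library 1 (0.10, adjusted p = 0.067), each of which brings the count from 2 to 1. It was also lost under TPM, with quantile normalization, with voom on recovered totals and in a fit of the compared groups alone (0.05 to 0.13, adjusted p from 0.057 to 0.31). The high dose was lower for Hmgcs1 (-0.18 ± 0.03, adjusted p = 0.00014) and Idi1 (-0.34 ± 0.06, adjusted p = 0.00061), against 15.1% of all tested genes. For Fdft1, Acat2 and Mvd no dose was called different from orlistat.

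A ratio of levels within a library does not depend on how libraries were scaled, and was taken for pairs chosen after their values were seen. Fdft1 over Fdps, the enzyme that draws on farnesyl diphosphate over the enzyme that makes it, was 0.702 ± 0.008 (SD, n = 3) in the normal control and 0.698 ± 0.023 in the obese control. It was 1.02 ± 0.026 with orlistat, 0.952 ± 0.032 at the low dose, 0.954 ± 0.006 at the medium dose and 1.14 ± 0.047 at the high dose. The controls overlapped (0.673 to 0.719 over both) and all 12 treated libraries were above them, from 0.926 to 1.17. A two-sided exact permutation test of each treated group against the obese control gave p = 0.1, the smallest that 3 libraries against 3 can give. Because the pair was chosen with its values seen, that p is no support for a difference. The normal control against the obese control gave p = 0.8 (exact permutation). Fdft1 over Hmgcs1 was 0.657 ± 0.018 in the normal control, 0.308 ± 0.005 in the obese control, 0.446 ± 0.012 with orlistat, and 0.493 ± 0.007, 0.458 ± 0.014 and 0.526 ± 0.011 at the low, medium and high dose. Here the controls did not overlap, and all treated libraries lay between them.

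**Figure D5:**
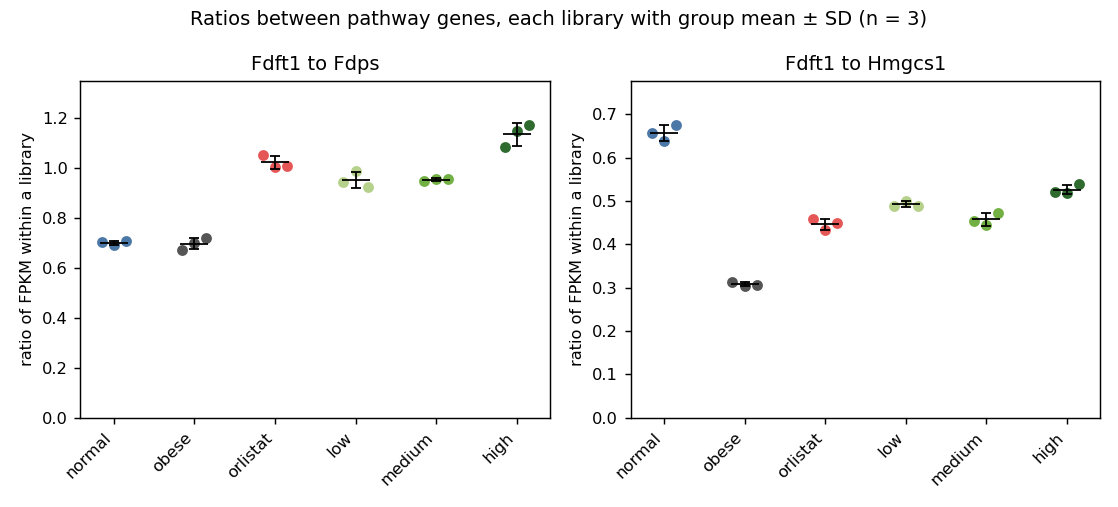
Ratio of the FPKM of Fdft1 to that of Fdps (left) and of Hmgcs1 (right) within each library (dots; vertical axes start at 0), by group, with the mean and SD of 3 libraries. On the left the controls lie between 0.673 and 0.719 and all treated libraries at 0.926 or above.

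The sterol steps after squalene also fell in the obese control. Of 12 listed genes 11 were in the table and tested (Lbr was not matched), and all 11 fell in the obese control, with a median of -0.91. For this list and those below, the shares of all tested genes called in each comparison are given with the member counts above. Msmo1, the methylsterol oxidase, fell by 2.04 ± 0.05 on the log2 scale, Cyp51, the lanosterol demethylase, by 1.58 ± 0.02, Tm7sf2, a sterol reductase, by 1.38 ± 0.04, Sc5d, a desaturase, by 0.82 ± 0.03 and Nsdhl by 0.67 ± 0.02. Against the obese control 8 rose and 2 fell with orlistat, 7 rose at the low dose, 8 at the medium dose, and 7 rose and 3 fell at the high dose. Under TPM 9 rose and none fell with orlistat, and 9 rose and 2 fell at the high dose. Msmo1 rose in all 4 groups, by 0.85, 0.57, 0.90 and 0.55 with orlistat and the low, medium and high dose. Tm7sf2 rose most with orlistat (0.93 ± 0.04, from 17.5 to 34.2 FPKM) and by 0.31, 0.27 and 0.17 at the rising doses. Nsdhl, Ebp and Dhcr7 were the 3 genes called lower at the high dose, by -0.06, -0.31 and -0.32, of which Nsdhl turned to 0.11 under TPM (adjusted p = 0.00067) and to 0.02 with quantile normalization. Earlier results on these libraries were known when this list was drawn up, and it is no independent support for the members.

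Genes that sense or import sterol were mixed. Of 11 tested, 5 fell and 2 rose in the obese control, where 28.4% of all tested genes were called lower and 26.7% higher. Stard4, a cholesterol transfer protein, fell by 1.46 ± 0.04 on the log2 scale, Insig1, which holds SREBP in the endoplasmic reticulum, by 0.80 ± 0.03, and Srebf2, which encodes SREBP2, by 0.43 ± 0.05 (from 12.1 to 8.72 FPKM). Insig2 rose by 1.96 ± 0.03, from 52.2 to 206 FPKM. Against the obese control 6 rose and 1 fell with orlistat, 4 and 1 at the low dose, 5 and 2 at the medium dose and 6 and 2 at the high dose. Between the controls 1 rose and 6 fell under TPM, and 3 rose and 4 fell with quantile normalization. Srebf2 rose in all 4 groups (0.26, 0.19, 0.18 and 0.22), as did Stard4 (0.59, 0.55, 0.77 and 0.79) and Mylip, a ubiquitin ligase (0.37, 0.28, 0.34 and 0.38). Insig2 fell in all 4 (-1.14, -0.73, -1.21 and -1.20). Insig1 differed between treatments, rising by 0.67 ± 0.03 with orlistat, at 0.00 at the low dose (adjusted p = 0.97), and falling by 1.09 ± 0.03 at the medium and by 0.36 ± 0.03 at the high dose.

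The 4 genes that supply cytosolic acetyl-CoA and NADPH all fell in the obese control. Acly, ATP citrate lyase, fell by 2.59 ± 0.03 on the log2 scale, from 108 to 17.0 FPKM, Acss2, the acetyl-CoA synthetase, by 1.91 ± 0.04, Me1, malic enzyme, by 0.73 ± 0.06 and Slc25a1, the citrate carrier, by 0.41 ± 0.04. Acss2 rose again in each treated group, by 0.40, 0.28, 0.47 and 0.28, while Acly rose with orlistat (0.17) and at the medium dose (0.26) and fell at the low dose (-0.11). Over the list, 2 rose and 2 fell with orlistat, 1 and 2 at the low dose, 2 rose at the medium dose, and 1 rose and 2 fell at the high dose. Under TPM 2 rose and 1 fell with orlistat, 1 rose and 1 fell at the low dose, and 2 rose and none fell at the high dose. Me1 was among those that fell with orlistat (-0.67) and at the low (-0.42) and high dose (-0.25).

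Among 12 genes of the branches that use farnesyl diphosphate for ubiquinone, dolichol and prenyl groups, most did not pass the test. Between the controls 26.7% of all tested genes were called higher and 28.4% lower. In the obese control 2 rose and 2 fell, with differences from -0.18 to 0.34: Fntb, a farnesyltransferase subunit (0.34 ± 0.10), and Nus1, a subunit of the dolichol-forming prenyltransferase (0.11 ± 0.04, but -0.01 under TPM), were higher, and Rabggtb (-0.18 ± 0.05) and Dhdds, the partner of Nus1 (-0.09 ± 0.04), lower. Against the obese control 1 rose and 3 fell with orlistat, 1 and 2 at the low dose, 3 and 2 at the medium dose and 2 and 3 at the high dose. Which direction prevailed depended on the scaling: between the controls 1 rose and 4 fell under TPM, and 4 rose and 1 fell with quantile normalization. Under TPM 4 rose and 1 fell with orlistat and at the high dose, and 4 rose and 2 fell at the medium dose, while with quantile normalization none rose and 3 fell with orlistat, and 1 rose and 3 fell at the high dose. Nus1 fell in all 4 groups (-0.20, -0.24, -0.33 and -0.25), while Dhdds rose at the low (0.24) and medium dose (0.28). Coq2 was called with orlistat at -0.14, which turned to 0.01 under TPM, and Pggt1b at 0.24.

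In the mitochondria, where a related thiolase serves ketone body production, Acat1, that thiolase, and Bdh1, which makes hydroxybutyrate, were higher in the obese control, where the members were lower. Acat1 rose by 0.62 ± 0.03 and Bdh1 by 0.44 ± 0.02. Against the obese control Bdh1 fell in all 4 treated groups, by 0.29 with orlistat and by 0.29, 0.18 and 0.10 at the low, medium and high dose. Acat1 fell by 0.31 with orlistat, by 0.27 at the low dose and by 0.18 at the high dose, and was at -0.03 at the medium dose (adjusted p = 0.42). Under TPM the high dose differences turned, to 0.08 for Bdh1, then called higher (adjusted p = 0.032), and to 0.0013 for Acat1 (adjusted p = 0.98).

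Of 861 tested genes outside the pathway whose group means spanned at least 1 on the log2 scale, those closest to the members' mean pattern over the 18 libraries were Txnip (r = 0.993), Cyp51 (0.989), Acss2 (0.986), Hacl1 (0.982), Sqle (0.976) and Fasn (0.974). The farthest in the opposite sense were Cyp8b1 (r = -0.972), Dipk2a (-0.963) and Eci1 (-0.951). The 3 normal control libraries stand apart from the other 15 in this pattern, so the likeness mostly reflects that gap. Txnip was at 49.0 FPKM in the normal control, 23.7 in the obese control and 24.2 to 27.9 in the treated groups. Cyp8b1, the sterol 12-alpha-hydroxylase of bile acid synthesis, was at 112 FPKM in the normal control, 239 in the obese control and 192 to 222 in the treated groups. These are descriptions over libraries that share the 6 groups, with no test.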

How the data were processed

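RNA was sequenced from 18 rat liver libraries, 3 per group. Per the submitters' processing notes, CASAVA 1.7, Bowtie 0.12.2 and the build mm8 were used. The build named is a mouse one although the identifiers are rat Ensembl ones, and the sources used here do not give the counter, the rat build or the annotation. The authors deposited 1 table of FPKM for 33657 genes, and per the file headers each gene has a length, coordinates and a symbol. Multiplying FPKM by gene length showed steps of 1 read in each library, with 100% of values whole (tolerance 0.001), and so gave back the reads, 16.6 to 26.2 M (mega) per library. The total behind the authors' scaling was 0.966 to 1.047 times the recovered total and differed by group.

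Here, log2(FPKM + 1) was taken for the 11945 genes that reached 1 FPKM in 3 or more libraries and fitted in R 4.3.3 with limma 3.58.1 and a mean-variance trend over the 6 groups. All 8 members passed that filter. Benjamini-Hochberg adjustment ran over all genes tested in a comparison, and 15 pairs of groups and a contrast over the doses were taken. The fit was tested on simulated data. From each pathway list the text names up to 4 tested genes with the smallest p between the controls and up to 2 more with the smallest p for orlistat, some of which are not reported here; Ebp, Dhcr7 and the ratio pairs were chosen after their values were seen. Members and lists were chosen with earlier results of these data known. Alternatives were other pseudocounts and filters, TPM, quantile normalization, median ratio scaling, limma voom on the recovered reads, fits of the compared groups only, a replicate block and leaving out each library. The summed Acat2 and Acat2l1 was added after seeing the data.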

Additional observations from a re-analysis of the deposited data

How the results depend on the processing

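Over the alternatives run, 491 of 509 counts of members stayed within 1.5 times the reported count, and 2704 of 2840 member differences kept direction and call, 89 lost the call, 25 gained it and 22 turned. The differences from the normal control lost no call and turned in no alternative. The cause of the changes below was not tested.

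Libraries left out in turn moved the counts of called members to 2 to 5 (low dose against orlistat, 4 reported), 1 to 3 (medium dose against orlistat, 2 reported), 2 to 4 (high against low dose, 4 reported) and 3 to 5 (trend over the doses, 5 reported). With voom on the recovered totals the counts were 3 (high dose against the obese control, 5 reported), 2 and 1 (low and medium dose against orlistat), 2 (high against low dose) and 3 (trend). Low dose against orlistat gave 2 without a filter, with TPM and with quantile normalization, and medium dose against orlistat 1 with quantile normalization and with its own groups alone. With only the compared groups, high against low dose gave 2 and medium against low dose 0 by limma (1 at an unadjusted p under 0.05, and 1 with all groups).

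Under TPM, Hmgcs1 turned to 0.0037 at the low and 0.064 at the high dose against the obese control, 0.060 for high against low dose and 0.034 for the trend, Idi1 to 0.086 and Fdps to 0.13 at the high dose. With quantile normalization Idi1 turned to -0.012 (medium dose), Fdps to 0.0068 (high dose) and Hmgcs1 to 0.0028 (high against low dose) and 0.014 (trend). With voom on recovered totals Idi1 turned to 0.0016 and Fdps to 0.033 at the high dose and Hmgcs1 to 0.0038 in the trend. With Acat2 and Acat2l1 summed, Acat2 turned to -0.0058 at the high dose and -0.0064 in the trend. On leaving out libraries, Idi1 at the medium dose ranged from -0.029 to 0.062, turning without obese control 3, medium dose 1 or medium dose 3. Pmvk at the high dose ranged from -0.053 to 0.12, turning without obese control 1 or 2 or high dose 2, and Fdft1 between the high and low dose from -0.012 to 0.041, turning without high dose 3.

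Same-numbered libraries of different groups did not deviate together (45 pairs, r from -0.092 to 0.066, none over 0.1; 2 of 18 libraries were closest to their own number), so the numbers do not pair libraries. With the replicate number as a block, 7 members were called between the controls, 5 with orlistat (Hmgcs1 lost, 0.07, adjusted p = 0.052), 5 at each dose, and 8 in each treated group against the normal control. Acat2 and Mvd rest on 44 to 135 reads per library in the treated groups, which limits what can be called for them.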
